A study of Mus musculus with 12 samples.

Results

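The core circadian clock genes Per1, Per2, Per3, Cry1, Cry2, Clock, Nr1d1 and Nr1d2 and the clock output genes Dbp and Tef were examined in mouse skeletal muscle. They were chosen by gene symbol: every probe set of the array that the probe-to-gene table assigns to 1 of these 10 genes and to no other was taken. This gave 24 probe sets, 6 for Per3, 4 for Clock, 3 each for Per2 and Tef, 2 each for Dbp and Nr1d2, and 1 each for Per1, Cry1, Cry2 and Nr1d1. All 24 were tested, out of 45037 probe sets in all, and the 10 genes stood among 18193 genes with a probe set of their own. The samples were skeletal muscle of C57Bl/6 mice, with 4 arrays in each of 3 groups. The first group had eaten a high-fat diet, with 46% of calories from fat, for 42 days, and the second had eaten it for 5 days, in both cases starting at 6 weeks of age. The remaining group stayed on chow, with 13% of calories from fat, and was the control for both diet times. All mice were group housed under 12 h of light and 12 h of darkness with free food and water. The labels do not give the hour of tissue collection, the sex, the muscle, or how old the chow mice were when sampled, and they do not say that replicates were separate animals. The p-values therefore measure only the spread between these samples, and differences in collection hour cannot be told apart from diet where they followed the groups. Because both high-fat groups started at 6 weeks of age, the 42-day mice were older when sampled than the 5-day mice. Age and time on the diet therefore cannot be told apart between the 42-day and the 5-day groups. The same chow group served both diet times, so it cannot match both in age at sampling. Age therefore also cannot be told apart from diet in the comparisons with chow.

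In mammals CLOCK pairs with BMAL1 (gene Arntl) and switches on genes that carry E-box sequences, among them the Per and Cry genes, whose proteins then return to the nucleus and block CLOCK and BMAL1. The nuclear receptors REV-ERB alpha (Nr1d1) and REV-ERB beta (Nr1d2) form a side loop, in which they repress Arntl, while ROR receptors activate it. DBP and TEF are PAR bZIP transcription factors that carry the rhythm to output genes through D-box sequences. In skeletal muscle most of these transcripts cycle over the day, and the muscle clock is known for its links to glucose uptake and fuel choice.

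Muscle transcripts of Nr1d2, Tef and Per2 were each higher after 42 days of high-fat diet than on chow by 1 probe set of the gene, while the probe set with the highest mean signal of the same gene did not pass the test. The rises were 1.80-fold for Nr1d2, 1.82-fold for Tef and 1.31-fold for Per2, and another probe set of Tef fell 1.29-fold. Per1 and Cry2 were lower at 42 days than at 5 days, by 1.23-fold for Per1 and 1.19-fold for Cry2. In whole tissue fewer cells of a type and less RNA per cell cannot be told apart. Values are RMA signals on the log2 scale, changes are log2 differences with their standard error (± SE), and a probe set was called when its adjusted p was under 0.05. The test was limma's moderated test with Benjamini-Hochberg adjustment over all 45037 probe sets, and every adjusted p below comes from it. In 42-day muscle against chow, 4 of the 24 probe sets (16.7%) passed, against 8.78% of all probe sets, with 3 rises against a background of 4.65% and 1 fall against a background of 4.13%. In 42-day against 5-day muscle 5 of 24 (20.8%) passed, against 5.98% of all, with 3 rises against 2.38% and 2 falls against 3.59%. In 5-day muscle against chow 0 of 24 passed by limma, against 3.21% of all, and 5 of 24 had an unadjusted p under 0.05. The median change of the 24 was -0.066 at 42 days against chow, beside -0.006 for all probe sets, and -0.056 at 42 days against 5 days, beside 0.028. At 5 days against chow the median was 0.009, beside -0.021. The comparisons with chow share the same 4 chow arrays, so the changes at 42 days and at 5 days are not independent. The count at 5 days was 3 when 5-day replicate 3 was left out or when each array was centred on its median, and 1 without chow replicate 1. The count at 42 days against 5 days was 0 when 5-day replicate 2, 42-day replicate 1 or 42-day replicate 4 was left out, 1 without 5-day replicate 3, and 2 without 42-day replicate 2 or 3. Over all 45037 probe sets the count in these fits, 2692 with every array, was 99, 434, 1514 and 32 on leaving out 42-day replicates 1 to 4 in turn, and 96 and 210 on leaving out 5-day replicates 2 and 3 in turn.

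**Figure D1:**
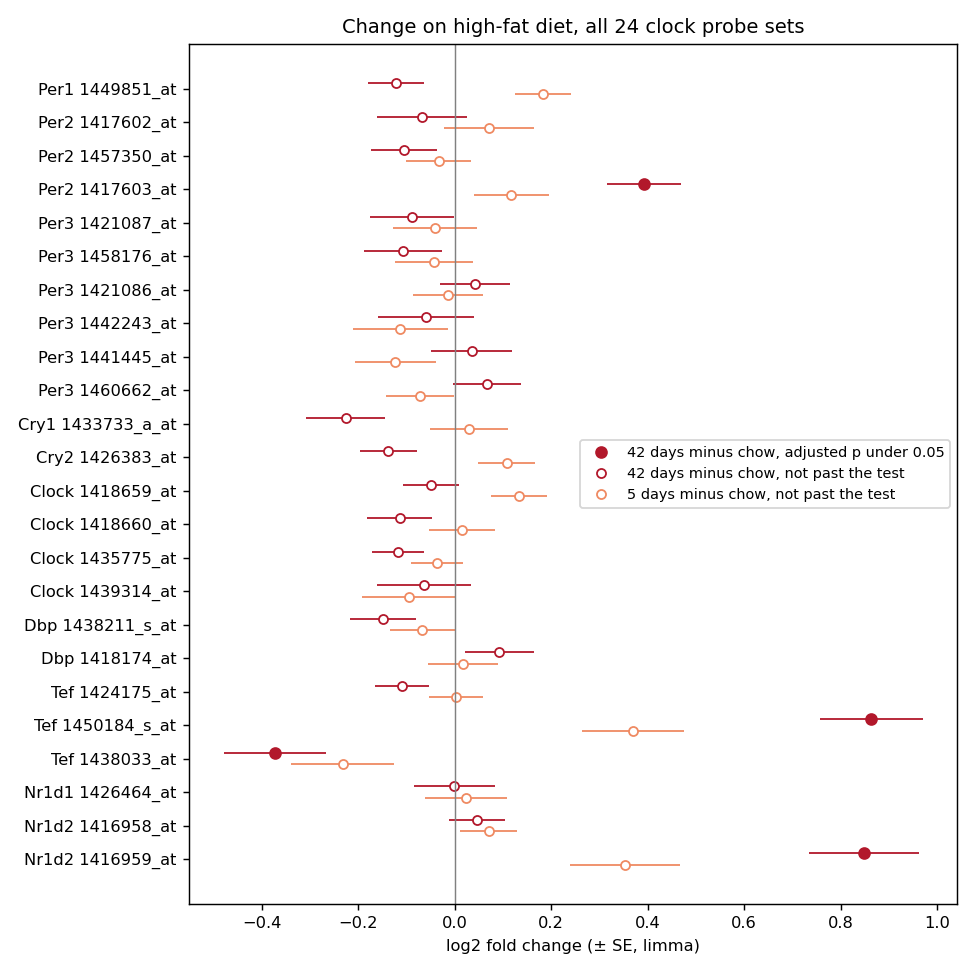
Log2 fold change against chow (± SE, limma) of all 24 clock probe sets, with 42 days in dark red and 5 days in orange. Filled points have an adjusted p under 0.05. Only 4 points at 42 days are filled, for Per2 1417603_at, both dimmer Tef probe sets and Nr1d2 1416959_at, and none at 5 days.

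Clock, the activator of the loop, did not pass the test in any of its 4 probe sets or 3 comparisons. Its probe set with the highest mean signal, 1418659_at, read 8.88, 8.98, 9.01 and 8.98 at 42 days, 9.03, 9.19, 9.24 and 9.12 at 5 days, and 8.98, 9.08, 9.03 and 8.96 on chow (replicates 1 to 4). All 5-day arrays lay above all 42-day arrays, and chow overlapped both. The change was -0.18 ± 0.06 at 42 days against 5 days (adjusted p = 0.0694), -0.05 ± 0.06 at 42 days against chow (adjusted p = 0.674) and 0.13 ± 0.06 at 5 days against chow (adjusted p = 0.175). The other 3 Clock probe sets changed by between -0.12 and -0.06 at 42 days and by between -0.10 and 0.01 at 5 days against chow.

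Among the Per genes, which encode the period repressors, Per1 was lower at 42 days than at 5 days. Its probe set 1449851_at read 10.72, 10.77, 10.75 and 10.78 at 42 days, 11.08, 11.17, 10.91 and 11.09 at 5 days, and 10.92, 10.86, 10.87 and 10.87 on chow. Every 42-day array lay below every 5-day and every chow array, and 5-day replicate 3 fell within the chow values while the other 5-day arrays lay above them. The change was -0.30 ± 0.06 at 42 days against 5 days (adjusted p = 0.0202). It was -0.12 ± 0.06 at 42 days against chow (adjusted p = 0.222) and 0.18 ± 0.06 at 5 days against chow (adjusted p = 0.081), neither past the test. The call at 42 against 5 days was lost without 5-day replicate 2, 42-day replicate 1 or 42-day replicate 4 (adjusted p from 0.0522 to 0.0629) and after quantile normalization (-0.20, adjusted p = 0.0706) or cyclic loess (-0.20, adjusted p = 0.0671). The rise at 5 days passed without 5-day replicate 3 (adjusted p = 0.0356).

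Per2 was read by 3 probe sets that did not move together. Probe set 1417603_at read 8.16, 8.25, 8.26 and 8.30 at 42 days, 7.97, 8.08, 7.75 and 8.06 at 5 days, and 7.92, 7.69, 7.84 and 7.95 on chow. All 42-day arrays lay above all others, and the 5-day and chow arrays overlapped. It rose by 0.39 ± 0.08 at 42 days against chow (adjusted p = 0.00614) and by 0.28 ± 0.08 at 42 days against 5 days (adjusted p = 0.0488), and changed by 0.12 ± 0.08 at 5 days against chow (adjusted p = 0.368). Probe set 1417602_at, with the highest mean signal of the 3, read 9.10, 8.82, 9.17 and 9.15 at 42 days, 9.17, 9.34, 9.14 and 9.14 at 5 days, and 8.90, 9.10, 9.20 and 9.32 on chow. Its groups overlapped, and its change at 42 days against chow was -0.07 ± 0.09 (adjusted p = 0.726). The remaining one, 1457350_at, changed by -0.11 ± 0.07 (adjusted p = 0.384). The call of 1417603_at at 42 against 5 days was lost when chow replicate 3 or 4, 5-day replicate 1, 2 or 3, or any 1 of the 42-day arrays was left out (adjusted p from 0.0528 to 0.116), and after quantile normalization (0.23, adjusted p = 0.0954) or cyclic loess (0.23, adjusted p = 0.104). It was also lost with arrays centred on their median (0.21, adjusted p = 0.09) and in a fit to the 8 arrays compared (adjusted p = 0.0504). In all, that call passed in 6 of 21 alternatives. The call of 1417603_at at 42 days against chow was kept without any 1 of the 12 arrays.

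Per3, a further period gene, passed the test in none of its 6 probe sets in any comparison. Their changes ran from -0.11 to 0.07 at 42 days against chow, from -0.12 to -0.01 at 5 days against chow, and from -0.06 to 0.16 at 42 days against 5 days. Probe set 1421087_at, with the highest mean signal, read 8.99, 8.90, 8.99 and 8.96 at 42 days, 9.03, 9.05, 8.99 and 8.97 at 5 days, and 8.98, 8.75, 9.20 and 9.26 on chow. The chow arrays spread over the widest range, with replicates 3 and 4 above and replicate 2 below all arrays of both high-fat diet groups. The SD of that probe set was 0.04 at 42 days, 0.03 at 5 days and 0.23 on chow.

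The cryptochromes Cry1 and Cry2, which encode the partners of the PER proteins in repression, were each read by 1 probe set. Cry2 (1426383_at) read 10.18, 10.23, 10.17 and 10.37 at 42 days, 10.48, 10.56, 10.41 and 10.48 at 5 days, and 10.32, 10.40, 10.39 and 10.39 on chow. All 5-day arrays lay above all 42-day and all chow arrays, and of the 42-day arrays only replicate 4 reached into the chow values. Cry2 fell by 0.25 ± 0.06 at 42 days against 5 days (log2 fold change -0.25, adjusted p = 0.0314). Its changes against chow, -0.14 ± 0.06 at 42 days (adjusted p = 0.168) and 0.11 ± 0.06 at 5 days (adjusted p = 0.272), did not pass. The call at 42 against 5 days was lost without 5-day replicate 2 or 3 and without any 1 of the 42-day arrays (adjusted p from 0.0522 to 0.0941), and after quantile normalization (-0.15, adjusted p = 0.112) or cyclic loess (-0.14, adjusted p = 0.14). Cry1 (1433733_a_at) read 6.93, 6.79, 7.04 and 7.10 at 42 days, 7.19, 7.35, 7.25 and 7.11 at 5 days, and 7.06, 7.25, 7.36 and 7.12 on chow. All 42-day arrays of Cry1 lay below all 5-day arrays, with an overlap with chow. Its change was -0.26 ± 0.08 at 42 days against 5 days (adjusted p = 0.0702), -0.23 ± 0.08 at 42 days against chow (adjusted p = 0.102) and 0.03 ± 0.08 at 5 days against chow (adjusted p = 0.854).

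Per1 and Cry2 carry sequences of the clock in the 250 bases before a start site, shown because both genes were lower at 42 than at 5 days. The sequences are from RefSeq, build GRCm38.p6, 5′ to 3′ on the strand of the gene, at chr11:69098699-69098948 (plus strand) for the first of 2 Per1 starts and chr2:92434070-92434319 (minus strand) for Cry2. Capitals mark, in Per1, an E-box (CACGTG) that begins 166 bases before the start and a ROR half-site (AGGTCA, here as TGACCT on the other strand) at 137 bases, and in Cry2 an E-prime box (CACGTT, here as AACGTG on the other strand) at 166 bases.
Per1: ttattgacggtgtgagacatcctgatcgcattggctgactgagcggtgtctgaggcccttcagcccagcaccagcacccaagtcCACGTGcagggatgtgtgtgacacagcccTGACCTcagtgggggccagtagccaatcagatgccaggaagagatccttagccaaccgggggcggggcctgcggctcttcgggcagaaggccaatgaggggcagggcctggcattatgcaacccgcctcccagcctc
Cry2: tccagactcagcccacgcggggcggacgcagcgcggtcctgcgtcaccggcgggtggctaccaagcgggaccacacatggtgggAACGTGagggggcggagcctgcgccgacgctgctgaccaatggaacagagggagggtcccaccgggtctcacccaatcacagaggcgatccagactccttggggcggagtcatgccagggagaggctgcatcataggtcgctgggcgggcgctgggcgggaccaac
With both strands searched, 6.02% of 32851 promoter windows of the same length held an E-box, 3.85% an E-prime box and 14.0% a ROR half-site. The E-box reads the same on both strands, and no motif searched contains another. The window before the other Per1 start held no motif searched. Windows of Cry1, Nr1d1 and Clock, which passed the test in no comparison, also held such motifs. These matches describe the letters only.

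Nr1d2, which encodes REV-ERB beta, was read by 2 probe sets. Probe set 1416959_at read 9.43, 9.30, 9.501 and 9.56 at 42 days, 8.998, 8.998, 8.63 and 9.19 at 5 days, and 8.86, 8.34, 8.61 and 8.60 on chow. All 42-day arrays lay above all others. At 5 days 3 arrays lay above all chow arrays and replicate 3 lay among them. The change was 0.85 ± 0.11 at 42 days against chow (adjusted p = 0.000695), 0.50 ± 0.11 at 42 days against 5 days (adjusted p = 0.029) and 0.35 ± 0.11 at 5 days against chow (adjusted p = 0.0857). Probe set 1416958_at, with the higher mean signal, read 12.88, 12.78, 12.88 and 12.87 at 42 days, 12.85, 12.94, 12.90 and 12.83 at 5 days, and 12.84, 12.66, 12.88 and 12.85 on chow. The 3 groups overlapped, and the change at 42 days against chow was 0.05 ± 0.06 (adjusted p = 0.704). The rise of 1416959_at against chow at 42 days was kept without any 1 of the 12 arrays, while that against 5 days was lost without 5-day replicate 2 or 3 and without any 1 of the 42-day arrays (adjusted p from 0.05001 to 0.0762). Nr1d1, which encodes REV-ERB alpha, did not pass in any comparison. Its probe set 1426464_at read 10.02, 10.17, 9.74 and 9.92 at 42 days, 10.08, 9.95, 9.98 and 9.94 at 5 days, and 9.89, 10.15, 9.92 and 9.91 on chow. The groups overlapped, with changes of -0.001 ± 0.085 at 42 days and 0.02 ± 0.08 at 5 days against chow.

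Tef, the PAR bZIP factor, was read by 3 probe sets with 3 courses. Probe set 1450184_s_at read 9.89, 9.81, 9.97 and 10.15 at 42 days, 9.36, 9.51, 9.25 and 9.71 at 5 days, and 9.33, 8.93, 8.97 and 9.12 on chow. All 42-day arrays lay above all others, and at 5 days only replicate 3 lay below the highest chow array. The change was 0.86 ± 0.11 at 42 days against chow (adjusted p = 0.000419), 0.49 ± 0.11 at 42 days against 5 days (adjusted p = 0.0246) and 0.37 ± 0.11 at 5 days against chow (adjusted p = 0.0628). The suffix _s_ of this name marks a set whose probes may match more than 1 transcript. Probe set 1438033_at read 7.80, 7.499, 7.81 and 7.61 at 42 days, 7.77, 7.84, 7.86 and 7.81 at 5 days, and 7.84, 7.81, 8.32 and 8.24 on chow. Chow replicates 3 and 4 stood above the other 10 arrays, which ran from 7.499 to 7.86. It fell by 0.37 ± 0.11 at 42 days against chow (log2 fold change -0.37, adjusted p = 0.0403), and its change at 5 days was -0.23 ± 0.11 (adjusted p = 0.195). Probe set 1424175_at, with the highest mean signal, read 12.58, 12.53, 12.61 and 12.57 at 42 days, 12.62, 12.68, 12.70 and 12.73 at 5 days, and 12.67, 12.56, 12.74 and 12.76 on chow. All its 42-day arrays lay below all its 5-day arrays, and its change was -0.11 ± 0.06 at 42 days against chow (adjusted p = 0.26) and against 5 days (adjusted p = 0.208). The fall of 1438033_at was lost without chow replicate 3 or 4, 5-day replicate 1 or 2, or 42-day replicate 2 or 4 (adjusted p from 0.0522 to 0.140). It was also lost in a fit to the 8 arrays compared (adjusted p = 0.077). The rise of 1450184_s_at against chow was kept without any 1 of the 12 arrays, and that against 5 days was lost without 5-day replicate 2 or 3 or 42-day replicate 1 or 4 (adjusted p from 0.0606 to 0.0658).

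**Figure D2:**
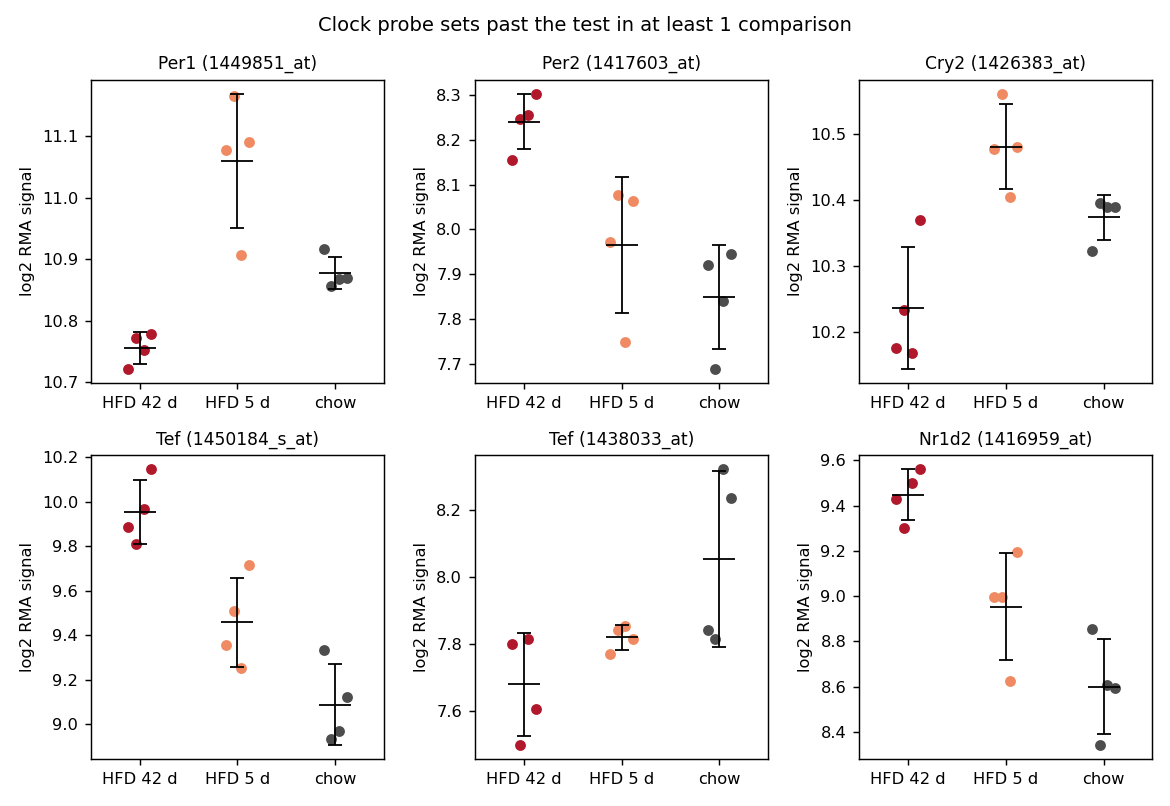
Log2 RMA signal of each array (points) with the group mean and SD (bars, n = 4) for the 6 clock probe sets past the test in at least 1 comparison, with a separate vertical scale for each panel. The 42-day arrays lie above all others for Per2 1417603_at, Tef 1450184_s_at and Nr1d2 1416959_at and below all others for Per1, and the fall of Tef 1438033_at goes with 2 high chow arrays.

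Dbp, the other PAR bZIP factor, did not pass the test in either probe set. Probe set 1438211_s_at read 11.86, 11.74, 11.84 and 11.79 at 42 days, 11.90, 11.80, 12.03 and 11.82 at 5 days, and 11.93, 11.84, 11.95 and 12.10 on chow. The groups overlapped, with changes of -0.15 ± 0.07 at 42 days (adjusted p = 0.206) and -0.07 ± 0.07 at 5 days against chow (adjusted p = 0.573). Probe set 1418174_at changed by 0.09 ± 0.07 at 42 days (adjusted p = 0.488) and by 0.02 ± 0.07 at 5 days against chow (adjusted p = 0.911).

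The sequences before the starts of Nr1d2 and Tef are shown because these 2 genes held the probe sets with the largest rises among the 24. They are from RefSeq, build GRCm38.p6, at chr14:18239107-18239356 (minus strand) for Nr1d2 and chr15:81802423-81802672 and chr15:81811164-81811413 (plus strand) for the first and the second start of Tef. Capitals mark a ROR half-site that begins 77 bases before the start of Nr1d2, and an E-box at 127 and at 138 bases before the starts of Tef.
Nr1d2: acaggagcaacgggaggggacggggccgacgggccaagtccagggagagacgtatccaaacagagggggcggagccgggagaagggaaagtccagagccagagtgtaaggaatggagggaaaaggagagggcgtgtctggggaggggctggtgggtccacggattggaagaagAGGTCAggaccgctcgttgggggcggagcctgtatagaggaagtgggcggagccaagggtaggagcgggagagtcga
Tef, first start: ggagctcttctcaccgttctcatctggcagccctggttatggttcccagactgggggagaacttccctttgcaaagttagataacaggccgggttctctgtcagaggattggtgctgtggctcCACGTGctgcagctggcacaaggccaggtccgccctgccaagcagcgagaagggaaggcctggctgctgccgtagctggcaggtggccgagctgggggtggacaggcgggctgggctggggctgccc
Tef, second start: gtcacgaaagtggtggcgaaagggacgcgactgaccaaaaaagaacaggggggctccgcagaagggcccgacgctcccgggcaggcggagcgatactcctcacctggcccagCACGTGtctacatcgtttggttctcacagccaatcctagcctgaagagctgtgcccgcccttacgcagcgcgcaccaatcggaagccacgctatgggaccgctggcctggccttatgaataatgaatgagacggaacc
The D-box (TTATGTAA or TTACGTAA, both strands), through which DBP and TEF act, was in 0.931% of all 32851 windows. Among the members it began 205 and 158 bases before the start of Per3, and was in none of the 5 printed windows.

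**Figure D3:**
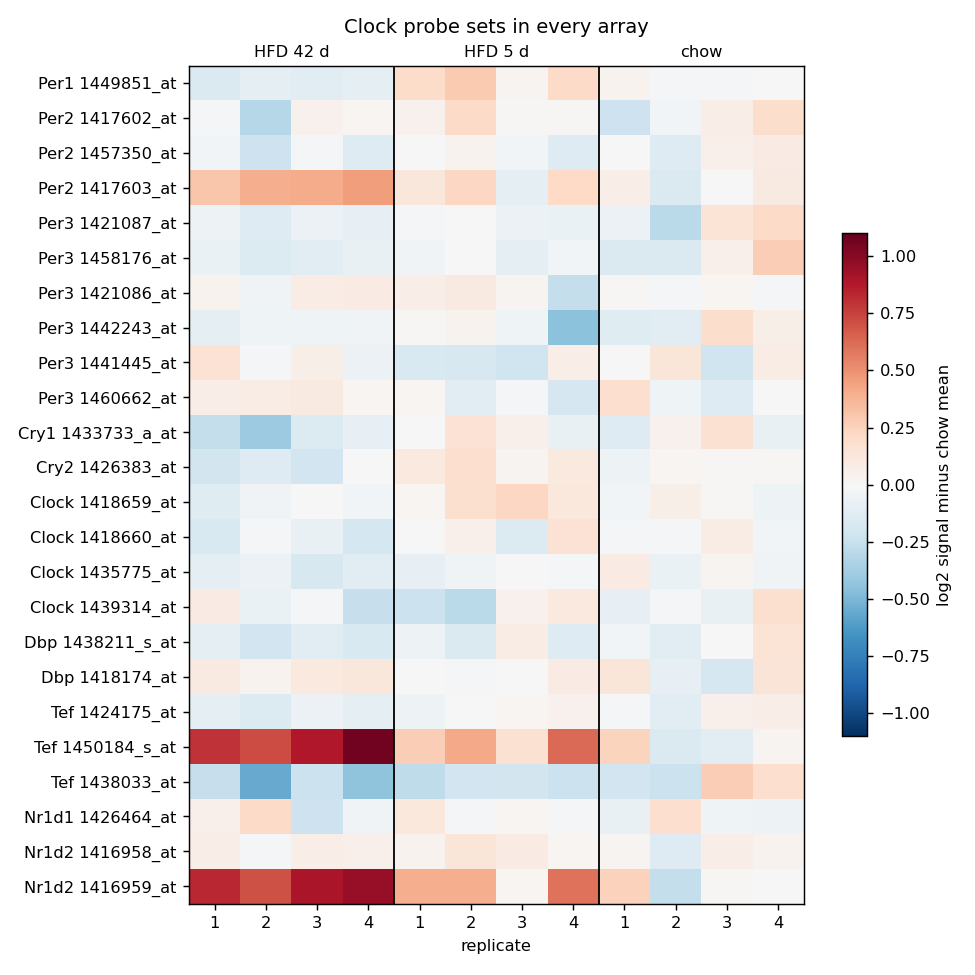
Log2 signal minus the chow mean of the probe set, for the 24 clock probe sets (down) in the 12 arrays (across, replicates 1 to 4 in each group). Nr1d2 1416959_at, Tef 1450184_s_at and Per2 1417603_at are red in all 4 arrays at 42 days, while the other probe sets of the same genes are not.

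In 3 of the 6 genes read by more than 1 probe set, a dimmer probe set passed at 42 days against chow while that with the highest mean signal did not. Of all 9010 genes with several probe sets, 1190 had a rise that the probe set with the highest mean signal did not share. For falls the number was 610 of the 9010. In these 3 clock genes the difference between the probe sets was also seen array by array. The Dbp probe sets moved in opposite directions at 42 days against chow as well (0.09 and -0.15), neither past the test. The difference between Nr1d2 1416959_at and 1416958_at averaged -3.40 ± 0.08 at 42 days, -3.92 ± 0.26 at 5 days and -4.21 ± 0.15 on chow (SD, n = 4). Only the change of such a difference has a meaning, since levels of different probe sets are not on 1 scale. It was 0.80 between 42 days and chow for Nr1d2, with no overlap of the groups. For Tef 1450184_s_at against 1424175_at the difference averaged -2.62 ± 0.13 at 42 days, -3.23 ± 0.18 at 5 days and -3.59 ± 0.18 on chow, a change of 0.97 between 42 days and chow. For Per2 1417603_at against 1417602_at it averaged -0.82 ± 0.17 at 42 days, -1.23 ± 0.13 at 5 days and -1.28 ± 0.20 on chow, a change of 0.46. In all 3 genes the 42-day arrays did not overlap with the chow or the 5-day arrays. These differences are described without a test, since the probe sets were picked for their change. By the probe set with its highest mean signal, 0 of the 10 genes passed limma's test against chow at 42 or at 5 days, against 6.31% of all 18193 genes at 42 days and 2.89% at 5 days. An unadjusted p under 0.05 was found for 3 of the 10 at 42 days and 2 at 5 days. At 42 days against 5 days 2 of the 10, Per1 and Cry2, passed by that probe set, against 6.10% of all genes.

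**Figure D4:**
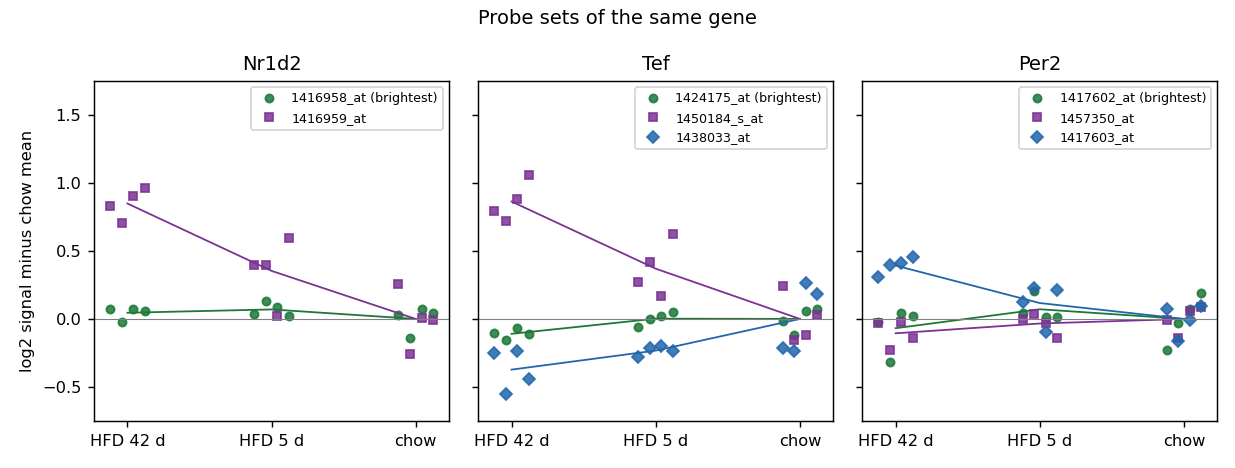
Log2 signal minus the chow mean for every probe set of Nr1d2, Tef and Per2, with points for arrays and lines through group means. Nr1d2 1416959_at, Tef 1450184_s_at and Per2 1417603_at rise towards 42 days while the brightest probe set of each gene (green) stays near 0.

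Such splits were common among the genes with a called probe set on these arrays. Of 9010 genes with several probe sets, 1434 had a probe set that rose at 42 days against chow. In 1190 of these (83.0%) the probe set with the highest mean signal did not rise past the test, and in 72 it fell. Of 1108 genes with a probe set that fell, 610 (55.1%) did not have a fall in the probe set with the highest mean signal. The control transcripts of the array also differed between the groups. For each of 4 controls the array reads the 3′ and the 5′ end, and the 3′ minus 5′ difference falls when copies reach further towards the 5′ end, because the labelled RNA is primed from the poly(A) tail. The mean of the 4 was 0.89 ± 0.08 at 42 days, 1.02 ± 0.08 at 5 days and 1.07 ± 0.06 on chow (log2, SD, n = 4). The pyruvate carboxylase control showed the widest gap, 1.24 ± 0.17 at 42 days, 1.60 ± 0.15 at 5 days and 1.93 ± 0.28 on chow. The transferrin receptor control averaged 2.22 ± 0.12 at 42 days, 2.22 ± 0.21 at 5 days and 2.07 ± 0.18 on chow.

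**Figure D5:**
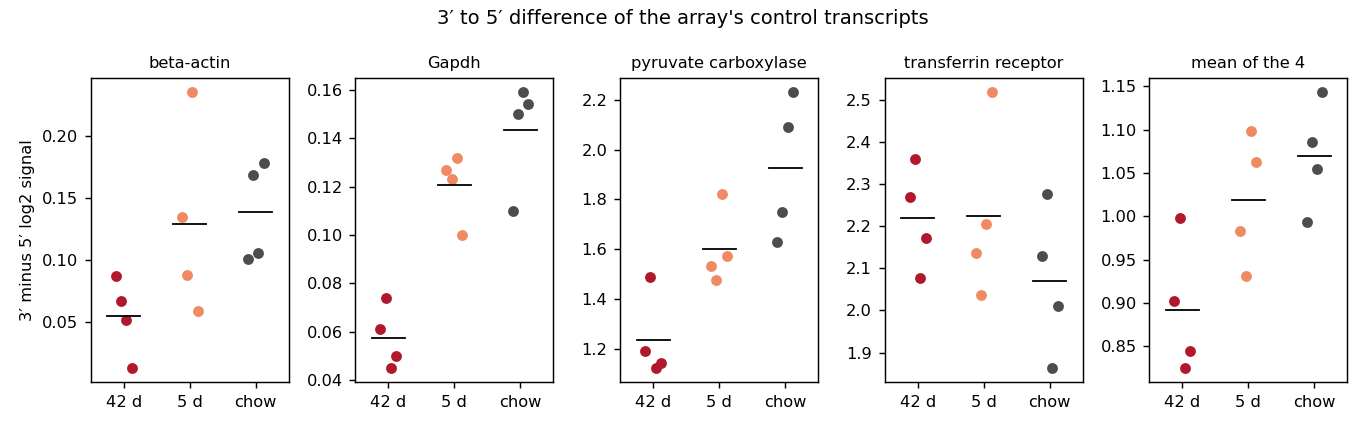
The 3′ minus 5′ log2 signal of the 4 control transcripts and their mean, for each array (points) with the group mean (line), with a separate vertical scale for each panel. The 42-day arrays lie below all others for Gapdh, overlap the 5-day arrays by 1 array for pyruvate carboxylase, and overlap both other groups for the transferrin receptor.

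With this mean entered in the limma model as a covariate, an alternative chosen after seeing the data, 0 of the 24 clock probe sets passed limma's test in each comparison, with an unadjusted p under 0.05 in 6 at 42 days against chow, 6 at 42 days against 5 days and 4 at 5 days against chow. Over all probe sets 17 passed at 42 days against chow and 1 at 42 days against 5 days. The covariate ran from 0.82 to 0.998 at 42 days, 0.93 to 1.098 at 5 days and 0.993 to 1.14 on chow, so it was lower on average at 42 days with some overlap between the groups. Since it differed with the groups, a call lost under it does not show that a change was absent. Under the covariate the changes at 42 days against chow were 0.59 for Nr1d2 1416959_at (adjusted p = 0.146), 0.68 for Tef 1450184_s_at (adjusted p = 0.109), 0.29 for Per2 1417603_at (adjusted p = 0.286) and -0.37 for Tef 1438033_at (adjusted p = 0.335). Without the covariate they were 0.85, 0.86, 0.39 and -0.37 in the same order. The changes at 42 days against 5 days were -0.37 for Per1 (adjusted p = 0.104) and -0.27 for Cry2 (adjusted p = 0.127). Without the covariate these were -0.30 and -0.25, so they did not shrink under it. The part of transcript length or RNA copying in the clock results was not tested beyond this.

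By root mean square difference of mean-centred log2 signal over the 12 arrays, the genes with the pattern most like Nr1d2 1416959_at were Lypla1 (1453949_s_at, 0.0749) and Ghr (1451871_a_at, 0.0862). These distances compare with a spread of 0.387 of the Nr1d2 probe set about its own mean. The probe sets most like Tef 1450184_s_at were those of Ccng1 (1450016_at, 0.0652) and Zfp106 (1425097_a_at, 0.0716). At 42 days against chow these probe sets changed by 0.83 for Lypla1, 0.86 for Ghr, 0.78 for Ccng1 and 0.89 for Zfp106. The probe sets with the highest mean signal of the same genes changed by -0.06 for Lypla1, -0.06 for Ghr, -0.06 for Ccng1 and -0.03 for Zfp106, none past the test. Closest to Per2 1417603_at were Tmx4 (0.0534) and Pik3r1 (0.0536), to Per1 Rnf214 (0.0341) and Epg5 (0.0479), and to Cry2 Pxn (0.0392) and Tuba8 (0.0416). All arrays share the 3 groups, so any probe set that moved with diet by a like amount comes close.

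Of the other clock genes, Rora encodes the ROR alpha receptor that activates Arntl. It was lower at 42 days than at 5 days in 3 probe sets, and lower than on chow in 1 of them. Only Rora probe sets past the test in some comparison are given, so these counts are not a share of all its probe sets. Among 27 probe sets of 11 measured activators and side-loop factors, 0 rose and 1 fell at 42 days against chow (all probe sets 8.78%), 1 rose and 0 fell at 5 days against chow (all 3.21%), and 1 rose and 3 fell at 42 days against 5 days (all 5.98%). The brightest Rora probe set, 1436326_at, averaged 11.77 ± 0.11 at 42 days, 12.14 ± 0.08 at 5 days and 12.04 ± 0.15 on chow (SD, n = 4). It changed by -0.28 ± 0.08 at 42 days against chow (adjusted p = 0.0344) and by -0.37 ± 0.08 at 42 days against 5 days (adjusted p = 0.0224). Rora 1436325_at and 1424034_at fell at 42 days against 5 days (-0.25 and -0.26), and 1420583_a_at rose at 5 days against chow (0.28, adjusted p = 0.0436). At 42 days against chow 1420583_a_at changed by 0.20 (adjusted p = 0.0975), 1436325_at by -0.03 and 1424034_at by -0.06, none past the test. Timeless, which works at DNA replication forks in mammals, rose at 42 days against 5 days by a dimmer probe set (0.33, adjusted p = 0.0213). Arntl, the partner of Clock, averaged 8.85 ± 0.19 at 42 days, 9.06 ± 0.14 at 5 days and 8.95 ± 0.22 on chow, and did not pass (-0.10 ± 0.11 at 42 days against chow, adjusted p = 0.641). At 42 days against chow the CLOCK paralogue gene Npas2 changed by 0.06, the DEC repressor genes Bhlhe40 and Bhlhe41 by -0.06 and -0.01, and the PAR bZIP gene Hlf by -0.18 (adjusted p = 0.24), none past the test. Nfil3, which encodes the repressor at D-boxes, changed by 0.37 at 5 days against chow (adjusted p = 0.0563) and by -0.35 at 42 days against 5 days (adjusted p = 0.0544).

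The enzymes that modify or remove clock proteins had 40 probe sets of 12 genes, of which 4 rose and 3 fell at 42 days against chow (all probe sets 8.78%), 1 rose and 1 fell at 5 days against chow (all 3.21%), and 0 rose and 4 fell at 42 days against 5 days (all 5.98%). Nampt, which makes NAD for the deacetylase SIRT1, rose at 42 days against chow in both of its called probe sets (0.53 ± 0.08, adjusted p = 0.00169, and 0.23 ± 0.06, adjusted p = 0.0379). The second of these was the one with the highest mean signal. Usp2, a ubiquitin protease with a rhythm in many tissues, fell at 42 days by its brightest probe set, against chow (-0.27 ± 0.07, adjusted p = 0.0217) and against 5 days (-0.25 ± 0.07, adjusted p = 0.0462). Sirt1 changed by -0.24 ± 0.07 at 42 days against chow (adjusted p = 0.0466). Dimmer probe sets of Prkaa2, an AMP-activated kinase subunit (0.49), and Fbxw11, a ubiquitin ligase subunit (0.61), rose at 42 days against chow. Of Gsk3b, a kinase of clock proteins, 1 dimmer probe set fell at 42 days against chow (-0.31), and 2 others fell at 42 days against 5 days (-0.31 and -0.25). Csnk1d, a casein kinase that acts on PER proteins, rose by 1 dimmer probe set at 5 days against chow (0.27). It fell by another dimmer probe set at 42 days against 5 days (-0.28). Btrc, a ubiquitin ligase subunit for PER proteins, fell by 1 dimmer probe set at 5 days against chow (-0.31).

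Genes induced by glucocorticoids or by CREB, which also act on Per1, had 38 probe sets of 13 genes, of which 1 rose and 0 fell at 42 days against chow (all probe sets 8.78%), 1 rose and 0 fell at 5 days against chow (all 3.21%), and 0 rose and 3 fell at 42 days against 5 days (all 5.98%). The immediate early gene Fos averaged 9.18 ± 0.08 at 42 days, 10.46 ± 0.59 at 5 days and 9.11 ± 0.46 on chow (SD, n = 4). It was higher at 5 days than on chow (1.35 ± 0.24, adjusted p = 0.0263) and lower at 42 days than at 5 days (-1.28 ± 0.24, adjusted p = 0.0194). Klf9, a glucocorticoid-induced repressor, fell at 42 days against 5 days in 2 dimmer probe sets (-0.33 and -0.31). Fkbp5, which encodes a co-chaperone of the glucocorticoid receptor, rose at 42 days against chow by a dimmer probe set (0.41 ± 0.08, adjusted p = 0.00463).

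The 12 muscle markers averaged 15.0 in each group by their brightest probe sets, close to the highest signal on the arrays (15.46). Of their 23 probe sets 2 rose and 1 fell at 42 days against chow (all probe sets 8.78%). The 6 liver markers rose in all 6 genes at 42 days against chow by their brightest probe sets (rises and falls of all genes 6.31%). Their mean ran from 9.24 to 10.59 at 42 days, 7.93 to 9.64 at 5 days and 8.20 to 8.65 on chow. Of 6 adipocyte markers 2 fell at 5 days against chow by their brightest probe sets (rises and falls of all genes 2.89%). The mean of the 6 ran from 9.73 to 10.60 at 42 days, 9.80 to 10.26 at 5 days and 10.34 to 11.32 on chow. That of 3 brown adipocyte markers ran from 6.86 to 8.01 at 42 days, 6.84 to 7.06 at 5 days and 7.04 to 8.94 on chow. At 42 days against chow 2 of 7 endothelial and 1 of 7 macrophage marker probe sets rose (rises of all probe sets 4.65%). By their brightest probe sets 1 of 6 endothelial and 1 of 5 macrophage genes rose at 42 days against chow (rises and falls of all genes 6.31%). At 5 days against chow 2 of the 6 endothelial genes rose (rises and falls of all genes 2.89%). Of 11 nerve marker probe sets 1 rose and 3 fell at 42 days against chow (all probe sets 8.78%). Array medians were 7.67 ± 0.02 at 42 days, 7.61 ± 0.02 at 5 days and 7.66 ± 0.02 on chow. The part of other cell types in the clock results was not tested.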

How the data were processed

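Total RNA of skeletal muscle (3 µg per sample) was converted to biotin-labelled cRNA with an oligo-dT primer and hybridised to Affymetrix arrays, per the labels' protocols. The deposited log2 signals per probe set were made by the authors with RMA, per the submitters' processing notes, which give no version or software. The log2 scale follows from their range, 3.67 to 15.46. Of 45098 probe sets, 61 controls were left out of the tests and no dim probe set was. Group means of the 12 arrays were fitted in R 4.3.3 by limma 3.58.1 (9 residual and 6.26 prior degrees of freedom), and 3 two-sided contrasts were tested with Benjamini-Hochberg adjustment over all 45037 probe sets within each.

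The 10 genes and the lists of other clock genes and of cell type markers were chosen with earlier results of these data known. Values were given array by array for each probe set past the test and for the probe set of each gene with the highest mean. Other clock genes were named where past the test, with a few named in any case. The 2 genes most like each called clock gene were taken from probe sets with 1 symbol. Probe sets were named through the platform annotation, in which 34945 carried 1 symbol, 932 several and 9160 none. Promoter windows of 250 bases came from RefSeq, and that of Per2 is not shown. The number of arrays limits the precision, there being no read depth. The fitting code was tested on simulated data. Alternatives were other normalizations of the deposited values, a filter on dim probe sets, 1 probe set per gene, a fit to 8 arrays, a robust prior with a trend, array weights, a replicate block, a threshold of 0.1, and leaving out each array in turn. The 3′ to 5′ covariate was added after seeing the data.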

Additional observations from a re-analysis of the deposited data

Results flagged for a closer look

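In 9 of 72 sets of 4 arrays, 1 array stood far from the other 3 by Dixon's test, which chance does in about 1 set in 20. At 42 days these were the lowest arrays of Nr1d2 1416958_at (replicate 2, 12.784) and Per3 1442243_at (replicate 1, 7.072). At 5 days they were the highest arrays of Per2 1417602_at (replicate 2, 9.336), Dbp 1418174_at (replicate 4, 11.402) and Per3 1441445_at (replicate 4, 7.096), and the lowest of Per3 1442243_at (replicate 4, 6.724). On chow they were the lowest array of Cry2 1426383_at (replicate 1, 10.322) and the highest of Clock 1418660_at (replicate 3, 8.783) and Nr1d1 1426464_at (replicate 2, 10.147). None of these 9 belonged to the probe sets past the test at 42 days against chow. Cry2 1426383_at, flagged on chow, passed at 42 days against 5 days. Per2 1417602_at and Nr1d2 1416958_at were the probe sets with the highest mean signal in the differences between probe sets of those genes.

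In 5 probe sets the 42-day and the 5-day groups differed by limma's test of that difference itself. The log2 differences, 42 days minus 5 days, were 0.4955 for Nr1d2 1416959_at, 0.494 for Tef 1450184_s_at, 0.2757 for Per2 1417603_at, -0.304 for Per1 1449851_at and -0.2452 for Cry2 1426383_at.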

How the results depend on the processing

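The calls of a rise for Nr1d2 1416959_at, Tef 1450184_s_at and Per2 1417603_at at 42 days against chow were kept without any 1 of the 12 arrays and under 8 of 9 other alternatives. They were lost with the 3′ to 5′ covariate, under which the changes were 0.59, 0.68 and 0.29. No call changed sign under any alternative. The 24 clock probe sets gave 3 to 4 calls at 42 days and 0 to 3 at 5 days against chow, and 0 to 5 at 42 against 5 days, when 1 array was left out. At 5 days, 3 passed with arrays centred on their median or at an adjusted p under 0.1, and 1 with the replicate block or without the dimmest 40%. At 42 days against chow, 0 passed with the covariate or with 1 probe set per gene. At 42 against 5 days, 2 passed after quantile normalization or cyclic loess (Nr1d2 and Tef) and with 1 probe set per gene, and 0 with the covariate. Whether replicate numbers pair the arrays was not settled, since pairs of different numbers were not compared. Of 12 same-numbered pairs 4 correlated over 0.1, among them those of replicate 1 (0.178, 0.111 and 0.165). With the replicate block, Tef 1450184_s_at passed at 5 days (adjusted p = 0.0493) and Per2 1417603_at did not at 42 against 5 days (adjusted p = 0.0523), and the clock counts were 4 at 42 days and 1 at 5 days against chow, and 4 at 42 against 5 days. Over all probe sets the count at 5 days, 1445, was 482 after quantile normalization, 502 after cyclic loess, 675 with array weights, 692 with 1 probe set per gene, 533 with the covariate, 7 with the 8 arrays compared, 2771 with arrays centred on their median and 4770 at an adjusted p under 0.1, and 5 to 1591 without 1 array. The count at 42 days against chow, 3953, was 1011 with 1 probe set per gene, 17 with the covariate and 6114 at an adjusted p under 0.1, and 1945 to 4407 without 1 array. The count at 42 against 5 days, 2692, was 1210 after quantile normalization, 1128 after cyclic loess, 1550 with 1 probe set per gene, 1 with the covariate, 5221 with arrays centred on their median and 6769 at an adjusted p under 0.1, and 32 to 3173 without 1 array. With 1 probe set per gene fewer probe sets were tested; the cause of the other changes was not tested. The number of arrays limits the size of change that could be called.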
